A study of Mus musculus with 8 samples.

Results

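The transcriptome of undifferentiated C3H10T1/2 cells with a stable knockdown of *Nfib* (shNFIB) was compared with that of the control cells (shControl), both at day 0. Genes were taken when the RPKM, a read count scaled to the exon length of the gene and to the mapped reads of the library, exceeded 1 in at least 1 of these 2 libraries. By this rule 10495 of the 41325 listed gene symbols were measured. For each of them the log2 ratio of RPKM + 0.1 in shNFIB over shControl cells was calculated, and a gene is called higher or lower where this ratio passes 2-fold.

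C3H10T1/2 is a mouse line of mesenchymal stem cells (MSCs) that can turn into fat, bone and cartilage cells. All lines were grown in DMEM with fetal bovine serum, and RNA at day 0 came from cultures that had been confluent for some days but had not yet received the adipogenic mixture of insulin, dexamethasone and isobutylmethylxanthine. The shNFIB line carries a short hairpin RNA against *Nfib* in the pLKO.1 vector under puromycin selection, and resistant clones were isolated. Whether the sequenced line is a single clone, and whether the control line went through the same isolation of clones, is not given in the sources used here. The study also made a shKDM4D and a shMLL1 line, and each of the 4 lines has 1 library at day 0 and 1 at day 5 of adipogenic differentiation.

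NFIB is a member of the nuclear factor I family of transcription factors, together with NFIA, NFIC and NFIX, which bind as dimers to a palindromic site. These proteins are known for roles in the development of brain, lung and muscle and in stem cells of the hair follicle, and NFI sites are found next to those of PPARγ in fat cells. PPARγ and C/EBPα are the central activators of the adipocyte program, and in preadipocytes they are switched on after C/EBPβ and C/EBPδ.

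The day 0 comparison has 1 library per line and so no replicate check, and no p-value is given. Whole reads could be recovered from the RPKM values, and the exact 95% intervals given below are those of the plain ratio of RPKM, without the 0.1, and cover counting error only. They say nothing of the spread between cultures or clones. The libraries held 26638000 reads in shControl, 18664900 in shNFIB, 19539000 in shKDM4D and 38202600 in shMLL1 cells at day 0. For a gene with 1 kb of exons, 3 reads correspond to an RPKM of 0.113 in shControl and of 0.161 in shNFIB cells. Of 10 mesenchymal markers, 9 in shControl and 8 in shNFIB cells had an RPKM over 1, and their summed RPKM was 574 and 401, respectively. The defining fat cell genes were almost silent, with a summed RPKM of 0.702 over 7 adipocyte markers in shControl and 0.154 in shNFIB cells. Of the marker lists for osteoblasts, chondrocytes, skeletal muscle, blood, endothelial, epithelial and neural cells, the chondrocyte list alone had a summed RPKM over 10 in these 2 libraries, through *Col2a1* (24.5 in shControl and 23.4 in shNFIB cells), and the neural list came next with 9.83 and 7.29. *Thy1* was a mesenchymal marker that went against the label in shNFIB cells, as described below. Besides it, 1 of the 10 markers was at exactly 0 in shNFIB cells, while 0 were in shControl cells.

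The targeted gene was examined first. *Nfib* (chr4:82290173-82705750, a protein-coding gene; positions are those of GRCm38) was measured at an RPKM of 9.92 in shControl, 11.46 in shKDM4D, 8.10 in shMLL1 and 2.31 in shNFIB cells. The shNFIB library was the only one of the 4 that stood apart. It held 645 *Nfib* reads against 3952 in shControl cells, and the plain log2 ratio was -2.10 (interval -2.22 to -1.98). The other family members were less affected. *Nfia*, which lies on the same chromosome, had a log2 ratio of -0.37, with an RPKM of 2.04 in shControl and 1.55 in shNFIB cells. *Nfic* (52.4 and 49.2) and *Nfix* (43.5 and 41.1) had far higher RPKM values than *Nfib* in both lines, and their log2 ratios were -0.09 and -0.08. *Kmt2a*, which encodes MLL1, had an RPKM of 5.17 in shControl and 6.33 in shNFIB cells, and *Kdm4d* had too few reads (2 and 6) to be compared.

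In all, 216 genes were higher in shNFIB cells (2.06% of the measured genes) and 380 were lower (3.62%), of which 51 and 99 passed 4-fold. The median ratio over all measured genes was 0.04, and 5% of the genes had a ratio below -0.84 and 5% one above 0.71. The counting interval lay above 0 for 206 of the 216 higher genes and below 0 for 370 of the 380 lower genes. The shares of 2.06% and 3.62% are those to set beside each list count below. A count near them is no result about the list. Nearest to the expression limit on the inner side was *Serpinb6c*, with an RPKM of 1.001 in shNFIB cells, and on the outer side *Ogfrl1*, with 0.99997 in shControl cells.

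Since all ratios at day 0 use the same shControl library, the shNFIB value was also ranked among the 4 day 0 libraries. It was the lowest of the 4 for 278 of the 380 lower genes (73.2%). It was the highest of the 4 for 194 of the 216 higher genes (89.8%). Over all measured genes these shares were 21.97% and 33.7%. The lower and higher genes were chosen by their ratio to shControl, so their shNFIB value already lay below or above that library. All measured genes were not chosen in this way. Part of each gap is therefore fixed by the choice, and the gaps are no test of the shNFIB library. The shNFIB value lay more than 2-fold below each of the other 3 libraries for 84 lower genes. For 78 higher genes it lay more than 2-fold above each of them. The remaining genes include some for which it was the shControl library that stood apart from all 3 knockdown lines.

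**Figure D1:**
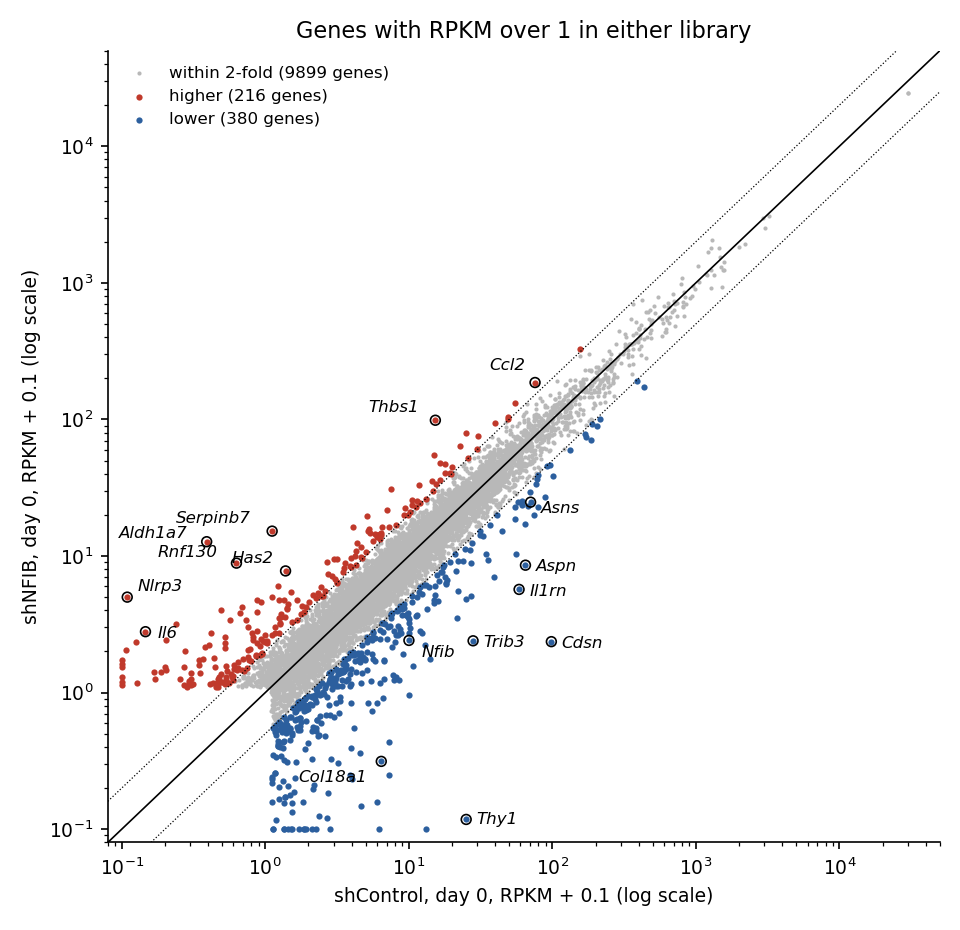
RPKM + 0.1 of the 10495 measured genes in shControl (x axis) and shNFIB cells (y axis) at day 0, both on log scales, 1 library each. The solid line marks equal values and the dotted lines 2-fold; 216 genes lie above (red) and 380 below (blue), with *Thy1* far below the line and *Nlrp3* and *Aldh1a7* far above it.

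Many genes of the amino acid response were lower in shNFIB cells. ATF4 is a transcription factor whose translation rises when amino acids are short or unfolded proteins accumulate. It then turns on genes for the making, uptake and charging of amino acids, often together with a C/EBP partner on a composite element. Of 21 measured ATF4 stress regulators and targets, 15 were lower in shNFIB cells and 0 higher, with a median log2 ratio of -1.40. The entry *Ddit3_1* was not counted, since the list holds the symbol *Ddit3*. Its RPKM was 88.5 in shControl, 62.1 in shKDM4D, 27.7 in shMLL1 and 26.9 in shNFIB cells. *Atf4* itself had an RPKM of 187 in shControl, 212 in shKDM4D, 104 in shMLL1 and 70.9 in shNFIB cells. *Trib3*, a pseudokinase that dampens ATF4 signalling, had 27.9, 24.2, 4.003 and 2.29 in the same order. The shNFIB value was the lowest in both cases, and the shMLL1 value was the next. *Chac1*, which degrades glutathione, had an RPKM of 21.7 in shControl and 3.44 in shNFIB cells (log2 ratio -2.62). *Atf3*, a stress-induced transcription factor, had 2.75 and 0.224 (-3.14), and *Cth*, the cystathionine gamma-lyase that makes cysteine, had 9.93 and 0.864 (-3.38).

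The list also holds *Cdsn*, which encodes corneodesmosin, an adhesion protein of the skin. Its RPKM was 98.3 in shControl, 35.6 in shKDM4D, 3.998 in shMLL1 and 2.26 in shNFIB cells, and the plain log2 ratio of -5.44 (interval -5.72 to -5.17) was the largest in the list. The knockdown lines were thus all below the control for this gene, and to very different degrees.

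The enzymes and carriers next to this response were lower as well. Of 15 measured enzymes of serine, asparagine and one-carbon metabolism, 9 were lower and 0 higher (median -1.19). *Aldh1l2*, the mitochondrial formyltetrahydrofolate dehydrogenase, had an RPKM of 39.0 in shControl, 29.0 in shKDM4D, 10.99 in shMLL1 and 6.93 in shNFIB cells. *Asns*, the asparagine synthetase, had 70.4, 77.2, 43.5 and 24.7, and *Shmt2*, which splits serine to feed mitochondrial folate, had 69.6, 47.0, 49.4 and 29.1. Of 12 measured amino acid transporters, 6 were lower and 0 higher (median -1.12). They include *Slc6a9*, a glycine carrier (6.53 in shControl and 0.813 in shNFIB cells), *Slc7a11*, the cystine-glutamate exchanger (2.56 and 0.589), and *Slc7a5*, the light chain of a carrier of large neutral amino acids (64.1 and 16.9). Of 20 aminoacyl-tRNA synthetases, which load amino acids onto tRNAs, 5 were lower and 0 higher, and 19 had a ratio below 0 (median -0.76). *Lars* (54.5 and 18.6) and *Aars* (67.2 and 23.2), the enzymes for leucine and alanine, had the lowest ratios, at -1.54 and -1.53.

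The same 4 lists were also described in the other knockdown lines, each against the same shControl library. In shKDM4D cells, where 0.915% of the measured genes were higher and 2.16% lower, the medians were -0.05 for the ATF4 list, -0.08 for the serine and one-carbon enzymes, -0.14 for the transporters and -0.04 for the synthetases. In shMLL1 cells, where 0.724% of the genes were higher and 4.75% lower, they were -1.20, -0.38, -1.17 and -0.24. In the same order of lists, 11, 4, 7 and 0 genes were lower in shMLL1 and 3, 0, 0 and 0 in shKDM4D cells. The shMLL1 medians of the ATF4 list and of the transporters were thus near those of shNFIB cells. The chaperone branch of the stress response had its median near 0 in shNFIB cells. Of 22 measured endoplasmic reticulum (ER) chaperones and unfolded protein response genes, 0 were higher and 0 lower, and the median was -0.04. *Herpud1*, an ER membrane protein of this list that takes part in protein degradation, had the lowest ratio of it, -0.90, with an RPKM of 24.2 in shControl and 12.9 in shNFIB cells.

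**Figure D2:**
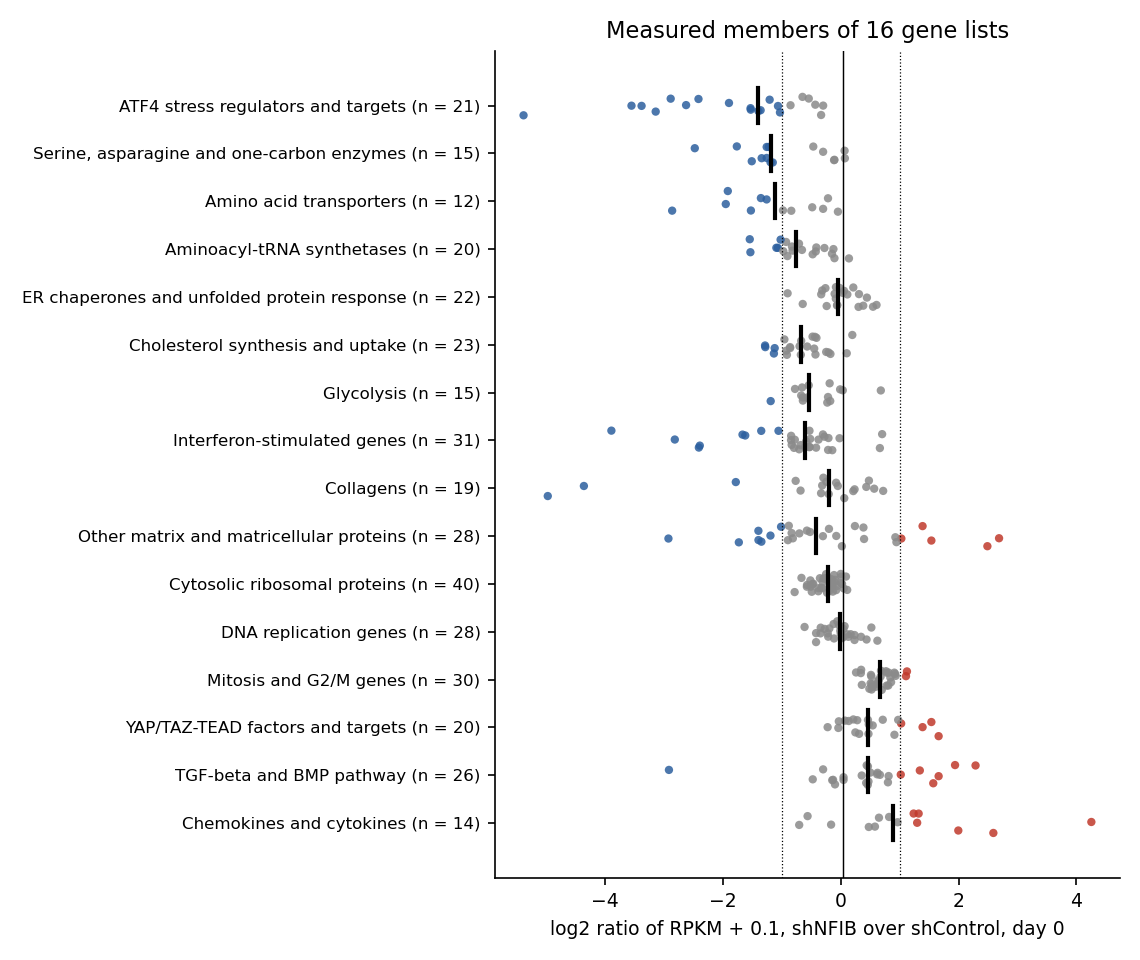
Log2 ratio of RPKM + 0.1 in shNFIB over shControl cells at day 0 for the measured members of 16 gene lists, 1 point per gene, with the list median as a black bar, the median of all genes as a solid line and 2-fold as dotted lines. The ATF4 list has its median at -1.40 and the ER chaperones at -0.04, while the 30 mitosis genes all lie above 0.

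The promoters of these genes were searched for 2 kinds of motif. The composite element of ATF4 and C/EBP was written as TGATGNAA, and NFI sites were written as the half-site TTGGCA and the full site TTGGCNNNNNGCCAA, each on both strands. The windows came from RefSeq (GRCm38.p6) and ran from 250 bases before to 50 bases after the start of transcription. They covered 8231 of the measured genes. The composite element was present in 12 of 34 windows (35.3%) of the lower genes of the ATF4, serine, transporter and synthetase lists. Over all measured members of these lists, lower or not, it was present in 16 of 61 windows (26.2%). It was present in 4.32% of the windows of the other lower genes, in 2.05% of those of all measured genes and in 3.97% of all 32851 windows in the table. The lists were made of known ATF4 targets and related genes, so their share is not independent of the element. They were also chosen with earlier results of these data known. Windows of 50 bases around the element are shown for 8 of these genes, since they let the element be seen in genes of all 4 lists. Each is written from 5′ to 3′ on the strand of the gene, with the element in capitals, and where the element reads on the other strand it appears as TTNCATCA.
Trib3, chr2:152344018-152344067: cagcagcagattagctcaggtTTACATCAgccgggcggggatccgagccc
Atf3, chr1:191183415-191183464: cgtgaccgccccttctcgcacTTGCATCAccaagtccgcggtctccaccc
Chac1, chr2:119351028-119351077: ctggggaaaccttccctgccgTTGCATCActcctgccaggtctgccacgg
Slc7a11, chr3:50443651-50443700: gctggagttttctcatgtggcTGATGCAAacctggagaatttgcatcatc
Pycr1, chr11:120643823-120643872: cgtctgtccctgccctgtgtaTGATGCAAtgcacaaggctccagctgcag
Asns, chr6:7693204-7693253: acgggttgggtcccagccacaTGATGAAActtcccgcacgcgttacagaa
Slc1a4, chr11:20332689-20332738: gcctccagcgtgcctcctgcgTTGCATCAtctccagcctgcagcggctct
Aars, chr8:111033709-111033758: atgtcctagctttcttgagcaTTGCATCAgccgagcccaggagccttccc

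The *Slc7a11* window holds the element a second time, on the other strand, in its right-hand part. *Trib3*, *Chac1*, *Atf3* and *Pycr1* (RPKM of 7.91 in shControl and 2.26 in shNFIB cells) thus carry the element beside log2 ratios between -3.55 and -1.76. The NFI half-site was present in 11.3% of the windows of lower genes, 15.3% of those of higher genes, 10.6% of those of measured genes and 14.1% of all windows. The full NFI site was found in 0 windows of the lower and the higher genes and in 12 of all 32851. A window of this size does not reach enhancers, and a match or its absence describes these letters only.

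Of 23 measured genes of cholesterol synthesis and uptake, 4 were lower and 0 higher, and 21 had a ratio below 0 (median -0.67). *Lss*, which closes the sterol ring, had an RPKM of 3.53 in shControl and 1.39 in shNFIB cells, and *Fdps*, which makes farnesyl diphosphate, had 24.6 and 11.2. The median of this list was -0.66 in the shKDM4D line, also with 4 genes lower, and -0.09 in the shMLL1 line. Of 15 glycolysis genes, 1 was lower and 13 had a ratio below 0 (median -0.54), whereas the median was 0.54 in shKDM4D and 0.27 in shMLL1 cells. *Gapdh*, which is often used as a reference gene, had an RPKM of 247 in shControl, 326 in shKDM4D, 286 in shMLL1 and 159 in shNFIB cells. It was the lowest in the shNFIB library, so a ratio to *Gapdh* serves as an alternative only. Cytosolic ribosomal proteins (median -0.22 over 40 genes) and nuclear-encoded respiratory chain genes (-0.12 over 36) held 0 higher and 0 lower genes.

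*Thy1* (chr9:44043384-44048579), a surface glycoprotein used to define mesenchymal stem cells, had an RPKM of 25.01 in shControl, 11.8 in shMLL1, 0.0171 in shKDM4D and 0.0179 in shNFIB cells. Its expression was thus nearly absent in 2 of the 3 knockdown lines. In bulk RNA, fewer cells that express a gene and less RNA of it per cell cannot be told apart. The shNFIB library held 1 read of it against 1995 in shControl cells, which gives a plain log2 ratio of -10.45 (interval -15.75 to -7.97). The other 12 measured mesenchymal surface markers were within 2-fold. *Ly6a*, which encodes Sca-1, had an RPKM of 172 in shControl and 90.6 in shNFIB cells. *Cd44*, the hyaluronan receptor, had 20.7 and 40.2, and *Pdgfra*, a PDGF receptor, had 13.4 and 13.9.

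Among 19 measured collagens, 3 were lower and 0 higher, beside 3.62% and 2.06% of all measured genes. *Col18a1*, a basement membrane collagen, had an RPKM of 6.33 in shControl, 8.32 in shKDM4D, 9.48 in shMLL1 and 0.214 in shNFIB cells, and the shNFIB library was set apart from all 3 others. *Col8a2*, a short-chain collagen, had 4.53, 2.82, 0.0758 and 0.0477, so that the shMLL1 library was also below 0.1. *Col16a1* had 15.9, 9.83, 15.9 and 4.55. The median of the list was -0.20. The matricellular protein *Tinagl1*, which is not in that list, had an RPKM of 7.14 in shControl, 7.84 in shKDM4D, 7.18 in shMLL1 and 0.332 in shNFIB cells. Like *Col18a1*, it was close to the control in the other knockdown lines (plain log2 interval -5.04 to -3.88 in shNFIB cells).

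Of 28 other matrix and matricellular genes, 5 were higher and 7 lower, beside 2.06% and 3.62% of all measured genes. The lower ones include *Aspn*, which encodes asporin, a small leucine-rich proteoglycan (64.9 in shControl and 8.47 in shNFIB cells), and *Postn*, which encodes periostin (34.5 and 10.3). In the other direction, *Thbs1*, the thrombospondin that activates latent TGF-beta, had an RPKM of 15.2 in shControl, 53.9 in shKDM4D, 23.8 in shMLL1 and 98.5 in shNFIB cells (plain log2 interval 2.63 to 2.76). *Has2*, the main hyaluronan synthase of mesenchymal cells, had 1.28, 3.77, 4.08 and 7.68. For both genes all 3 knockdown lines were above the control and the shNFIB library was the highest.

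Several secreted regulators were among the higher genes. Of 26 measured genes of the TGF-beta and BMP pathway, 6 were higher and 1 lower (median 0.47). The shares over all measured genes were 2.06% and 3.62%. The ligand subunit genes *Inhba* and *Inhbb*, which form activins, had an RPKM of 4.98 and 0.838 in shControl and 19.4 and 4.48 in shNFIB cells. *Tgfb2*, a TGF-beta ligand that the YAP list below also holds, had 2.92 in shControl, 4.89 in shKDM4D, 1.62 in shMLL1 and 9.45 in shNFIB cells. The antagonists were higher too, with *Fst*, the activin-binding follistatin, at 4.19 and 10.8 and *Bmper*, a BMP-binding protein, at 5.06 and 15.2. *Tgfbi*, a matrix protein that TGF-beta induces, was the 1 lower gene, with 4.08 in shControl, 2.21 in shKDM4D, 4.57 in shMLL1 and 0.455 in shNFIB cells.

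YAP and TAZ are cofactors that respond to cell shape and density and act through TEAD factors. Of 20 measured genes of this list, 4 were higher and 0 lower, beside 2.06% and 3.62% of all measured genes. A ratio above 0 was found for 17 of the 20 (median 0.47). *Ctgf*, a matricellular growth factor and a standard readout of YAP, had an RPKM of 16.4 in shControl, 23.6 in shKDM4D, 24.9 in shMLL1 and 47.9 in shNFIB cells. *Cyr61*, its relative, had 17.9, 24.5, 23.1 and 47.0. The shNFIB library was the highest for both, with the other 2 knockdown lines in between. Outside this list, *Plat*, which encodes tissue plasminogen activator, had 3.22, 2.17, 1.31 and 0.833 in the same order and was lowest in shNFIB cells.

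Of 14 measured chemokines and cytokines, 6 were higher and 0 lower (median 0.89). *Ccl2*, which attracts monocytes, had an RPKM of 75.7 in shControl, 119 in shKDM4D, 153 in shMLL1 and 186 in shNFIB cells, and its neighbour *Ccl7* had 39.6, 68.9, 122 and 93.6. *Il33*, an alarmin, had 0.468, 0.248, 0.644 and 3.32, and *Ccl8* had 0.661, 0.300, 0.666 and 2.94. For the last pair the shNFIB library stood alone. *Il1rn*, the antagonist of the interleukin-1 receptor, went the other way with an RPKM of 58.5 in shControl, 42.8 in shKDM4D, 2.09 in shMLL1 and 5.59 in shNFIB cells. No blood cell marker accompanied the cytokine genes. The summed RPKM of 6 macrophage and blood markers was 2.24 in shControl and 0.841 in shNFIB cells, and *Cd68* was the highest of them in both.

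Wnt pathway genes differed in both directions. Wnt ligands act through Frizzled receptors, R-spondins amplify the signal, and *Axin2*, *Nkd2* and *Notum* are feedback inhibitors that the pathway commonly induces. Of 20 measured genes, 3 were higher and 4 lower, beside 2.06% and 3.62% of all measured genes. *Axin2* had an RPKM of 0.0682 in shControl, 0.102 in shKDM4D, 0.185 in shMLL1 and 1.31 in shNFIB cells. *Nkd2* had 1 read in shControl and 175 in shNFIB cells, a plain log2 ratio of 7.96 (interval 5.47 to 13.28). *Sfrp1*, a secreted Wnt antagonist, had 3.04 and 9.40. *Notum*, in contrast, had 2.09 in shControl and 0.111 in shNFIB cells, and *Rspo2*, an R-spondin, had 35.4, 19.2 and 1.78 in shControl, shKDM4D and shMLL1 cells and 9.21 in shNFIB cells. The feedback inhibitors thus did not share a direction.

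Mitosis genes had higher RPKM values in shNFIB cells, and DNA replication genes did not. All 30 mitosis and G2/M genes had a ratio above 0, with a median of 0.66, and 2 of them were past 2-fold, namely the kinetochore genes *Cenpe* (16.4 in shControl and 35.9 in shNFIB cells) and *Cenpf* (9.20 and 19.9). The median of 28 DNA replication genes was -0.0035, with 14 above and 14 below 0. The mitosis list had nearly the same median in shKDM4D (0.61) and shMLL1 cells (0.60), each taken against the same shControl library. *Cenpe* and *Cenpf* were lowest in shControl cells among the 4 libraries. Among the CDK inhibitors and p53 targets, 1 of 21 measured was higher and 2 were lower, and 14 had a ratio above 0 (median 0.37). The shares over all measured genes were 2.06% higher and 3.62% lower. The death receptor gene *Eda2r* had an RPKM of 5.98 in shControl and 14.1 in shNFIB cells. *Gadd45a*, a growth arrest gene, had an RPKM of 24.9 in shControl, 23.4 in shKDM4D, 6.25 in shMLL1 and 4.77 in shNFIB cells.

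Of 31 measured interferon-stimulated genes, 8 were lower in shNFIB cells and 0 higher (median -0.60), but 13 were lower in shKDM4D (median -0.82) and 18 in shMLL1 cells (median -1.13). *Ifit1*, an antiviral RNA-binding protein, had an RPKM of 11.3 in shControl, 2.89 in shKDM4D, 3.59 in shMLL1 and 3.61 in shNFIB cells. For *Ifit1* the shControl library was the high one. *Ifi27l2a* had 6.57 in shControl, 0.663 in shKDM4D, 7.80 in shMLL1 and 1.16 in shNFIB cells, so that the shMLL1 value was the highest. Taken against the median of the other 3 day 0 libraries instead, the list had a median of 0.13 in shNFIB cells.

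The adipogenic factors, which are the subject of the study, were examined next. *Pparg* (chr6:115360951-115490399) had an RPKM of 8.20 in shControl, 5.60 in shKDM4D, 3.34 in shMLL1 and 6.02 in shNFIB cells. *Cebpa* (chr7:35119293-35121928) had 2.05, 1.59, 0.596 and 1.22. The shNFIB value of both was below the control and above that of shMLL1 cells, and neither passed 2-fold, with plain log2 ratios of -0.45 (interval -0.64 to -0.25) and -0.75 (-1.21 to -0.31). For *Pparg* the shNFIB value was also above that of shKDM4D cells, and so above the median of the other day 0 libraries. For *Cebpa* it was below that median. *Cebpb* had 38.3 and 35.8 in shControl and shNFIB cells, and its interval (-0.22 to 0.02) included 0. Of 14 measured adipogenic factors, 1 was lower and 1 higher, beside 3.62% and 2.06% of all measured genes. *Ebf1*, an early B-cell factor that acts upstream of *Pparg*, had 3.97 and 1.88, and *Cebpd* had 19.6 and 39.8. Of 15 anti-adipogenic factors, 2 were higher and 1 lower. This list also holds *Ddit3*, and the entry *Ddit3_1*, lower at 88.5 and 26.9, was not counted here either. *Klf2*, a Krüppel-like repressor of *Pparg*, had 7.22 in shControl and 16.2 in shNFIB cells, *Wisp2* had 48.7 and 104, and *Zfp521*, an inhibitor of *Ebf1*, had 8.24 and 2.53. Of 9 measured adipocyte genes, 2 were lower, the desaturase *Scd1* (27.0 and 8.80) and the lipid droplet protein *Plin4* (13.1 and 6.0003).

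**Figure D3:**
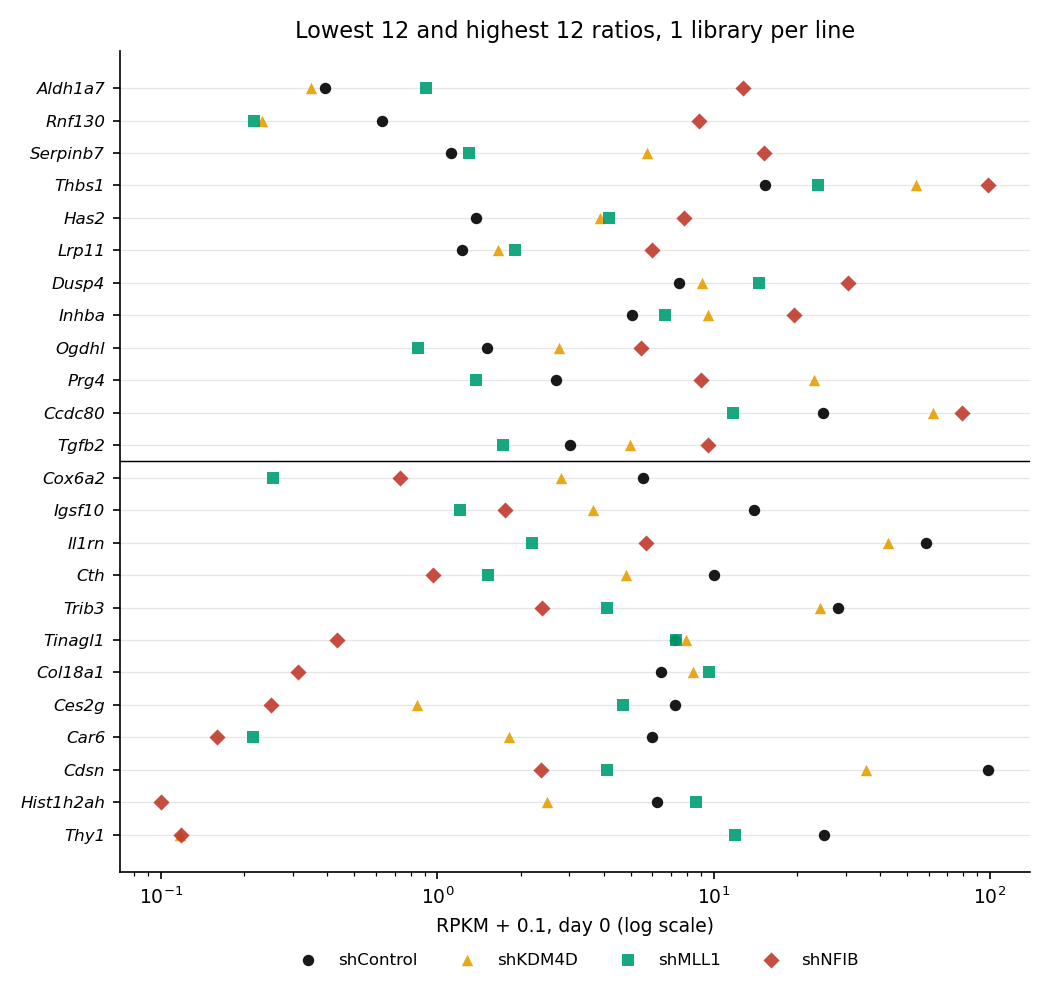
RPKM + 0.1 at day 0 (log scale) of the 12 genes with the lowest and the 12 with the highest ratio of shNFIB to shControl cells among genes with an RPKM of at least 5, in the 4 day 0 libraries. *Col18a1* and *Tinagl1* are low in shNFIB cells alone, while *Thy1* is also low in shKDM4D cells and *Il1rn*, *Trib3* and *Cdsn* in shMLL1 cells.

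Several of the largest ratios belong to genes of no list. *Aldh1a7*, an aldehyde dehydrogenase, had an RPKM of 0.291 in shControl, 0.248 in shKDM4D, 0.811 in shMLL1 and 12.6 in shNFIB cells. *Rnf130*, a RING-finger ubiquitin ligase, had 0.530, 0.131, 0.118 and 8.77, and *Serpinb7*, a serine protease inhibitor, had 1.02, 5.65, 1.20 and 15.1. *Dusp4*, a phosphatase that turns off MAP kinases, had 7.41, 9.003, 14.5 and 30.6. In each of these the shNFIB library was the highest of the 4 by more than 2-fold. Among the lower genes, *Ces2g*, a carboxylesterase, had 7.16 in shControl, 0.745 in shKDM4D, 4.61 in shMLL1 and 0.150 in shNFIB cells. *Car6*, a secreted carbonic anhydrase, had 5.89, 1.72, 0.115 and 0.0590, and *Igsf10* had 13.9, 3.55, 1.11 and 1.66. The other knockdown lines were thus often lower than the control as well.

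Genes switched on or off were counted as those with an RPKM over 1 in one library and under 0.1 in the other. In shNFIB cells 14 genes were on that were off in shControl cells, of which 6 were at exactly 0 there, and 34 were off, of which 16 were at exactly 0. *Nlrp3*, the sensor of an inflammasome, had an RPKM of 4.90 in shNFIB cells, with 371 reads, and 1 read in shControl cells. Its plain log2 ratio was 9.05 (interval 6.56 to 14.36), and its RPKM was 0.0252 in shKDM4D and 0.0258 in shMLL1 cells. *Il6*, an inflammatory cytokine, had 122 reads against 3, a log2 ratio of 5.86 (4.28 to 8.16), and *Ms4a4d*, a membrane-spanning protein, had 64 against 1 (6.51, interval 3.98 to 11.84). *Il6* had an intermediate RPKM of 0.759 in shKDM4D cells. The predicted gene *Gm47204* had 49 reads in shNFIB and 0 in shControl cells and was at least 23.3-fold higher, when 3 reads are put in place of 0. This fold takes no account of the counting error of the 49 reads, with which the lower end of the exact log2 interval was 4.19. The histone gene *Hist1h4n* had 13 against 0 reads and was at least 6.18-fold higher by the same floor (lower end of the log2 interval 2.12), but its RPKM in shKDM4D (2.14) and shMLL1 cells (2.19) was above that in shNFIB cells (1.62).

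Of the genes that were off in shNFIB cells, *Gm13528*, a predicted gene, had 143 reads in shControl and 0 in shNFIB cells, at least 33.4-fold lower by the same floor (upper end of the log2 interval -4.74), and it was also listed at 0 in shKDM4D cells. *5730409E04Rik* had 210 reads against 0, at least 49.0-fold lower (-5.31), and an RPKM of 2.00 to 3.42 in the other 3 libraries. *Serping1*, the inhibitor of complement C1, had 77 reads against 0, at least 17.98-fold lower (-3.84). *Arhgap28*, a GTPase-activating protein, had 373 reads against 2 (plain log2 ratio -7.03, interval -10.08 to -5.17), with an RPKM of 1.43 in shKDM4D and 2.81 in shMLL1 cells. *Igfbp3*, a carrier of insulin-like growth factors, had 90 reads against 1 (-5.98, interval -11.30 to -3.46). These last 4 genes were off in the shNFIB library alone among the day 0 libraries. The histone gene *Hist1h2ah* had 66 reads against 0, at least 15.4-fold lower (-3.61).

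The share of lower genes differed between chromosomes. The median ratio of the measured genes was -0.30 on chromosome 15 (423 genes), -0.24 on chromosome 4 (656 genes) and -0.16 on chromosome 8, and it was 0.24 on chromosomes 12 and 16 and 0.23 on chromosome 9. On chromosome 15, 8.04% of the genes were lower and 75.9% had a ratio below 0. On chromosome 4, where *Nfib* lies, the shares were 5.95% and 72.6%. The share of lower genes was near that of chromosome 4 on chromosomes 13 (5.97%), 18 (5.47%) and 3 (5.26%). Along chromosome 4 the 217 genes before *Nfib* had a median of 0.02, with 9 lower, and the 438 genes after it had a median of -0.34, with 29 lower and 2 higher. *Col8a2*, *Col16a1*, *Tinagl1*, *Car6* and *5730409E04Rik* are all in that second stretch, which was defined after the values were seen. The medians of the same 2 stretches were 0.01 and -0.01 in shKDM4D and -0.07 and -0.01 in shMLL1 cells. The other lines had outlying chromosomes of their own. In shKDM4D cells the medians were -0.34 on chromosome 10, -0.32 on chromosome 18, 0.25 on chromosome 1 and 0.23 on chromosome 2. In shMLL1 cells the median was -0.31 on chromosome 14.

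These chromosome medians recurred at day 5, where Pearson's r between the 20 chromosome medians of the shNFIB ratio at day 0 and day 5 was 0.95, a description over libraries of the same lines. With the median of each chromosome subtracted from its genes, 201 genes were higher and 368 lower at day 0. The part of chromosome number or of any other cause in these medians was not tested.

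**Figure D4:**
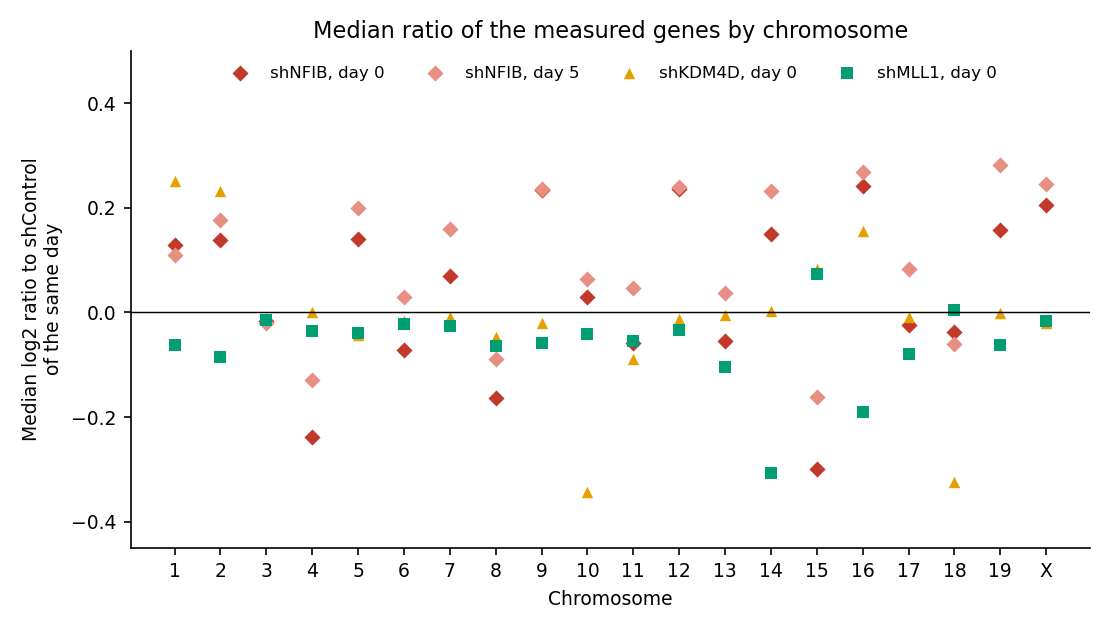
Median log2 ratio to the shControl library of the same day by chromosome, over the genes measured at day 0, for shNFIB cells on both days and for the other knockdown lines at day 0. In shNFIB cells chromosomes 4, 8 and 15 lie below 0 on both days, and chromosomes 9, 12 and 16 above 0.23 on both days.

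The libraries at day 5, after induction with the adipogenic mixture, are from the same lines and were not used to choose the genes. At day 5, 4.11% of the measured genes were higher in shNFIB than in shControl cells and 3.42% were lower. Of the 216 genes higher at day 0, 181 (83.8%) had a ratio above 0 at day 5 and 102 (47.2%) were again higher by more than 2-fold, with a median of 0.92, while 8 were lower. Of the 380 genes lower at day 0, 254 (66.8%) had a ratio below 0 at day 5 and 128 (33.7%) were again lower by more than 2-fold, with a median of -0.51, while 39 were higher. Of all measured genes, 6249 (59.5%) had a ratio above 0 at day 5, which stands beside the 83.8% of the higher genes only. The median of all measured genes at day 5 was 0.10. Across these genes the ratios at day 0 and day 5 had a Pearson's r of 0.42 (n = 10495 genes, which are not independent replicates).

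The genes that stayed apart included the targeted one. *Nfib* had an RPKM of 17.0 in shControl and 3.38 in shNFIB cells at day 5. *Thy1* had 22.6 and 0.0632, *Col18a1* had 11.49 and 1.20, and *Ces2g* had 9.22 and 0.0883. On the other side, *Nlrp3* had 0.0638 in shControl and 3.98 in shNFIB cells, *Rnf130* had 1.30 and 12.03, and *Thbs1* had 9.52 and 40.7. *Inhba* had 1.31 and 8.79, and *Tgfb2* had 6.81 and 19.1. For all of these the direction at day 5 was that of day 0, past 2-fold.

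The stress genes *Trib3* and *Asns* lay on opposite sides of the control on the 2 days. In shControl cells *Trib3* went from an RPKM of 27.9 at day 0 to 3.21 at day 5, and in shNFIB cells from 2.29 to 9.33. *Asns* went from 70.4 to 12.8 in shControl and from 24.7 to 33.1 in shNFIB cells. The shNFIB value was the lower one before induction and the higher one after it. Of the 21 measured ATF4 genes, 3 were higher and 1 was lower by more than 2-fold at day 5. The median of the ATF4 list was -1.40 at day 0 and 0.29 at day 5, that of the serine and one-carbon enzymes -1.19 and 0.76, that of the synthetases -0.76 and 0.39, and that of the amino acid transporters -1.12 and -0.02. The interferon-stimulated genes had -0.60 at day 0 and 1.75 at day 5. The adipocyte genes had -0.60 and -2.30, and *Pparg* and *Cebpa* were also further below the control at day 5, *Pparg* (log2 ratio -0.44 and -1.52) by less than *Cebpa* (-0.70 and -1.91). *Aldh1a7*, with the highest ratio at day 0 among the well expressed genes, had an RPKM of 42.1 in shControl and 25.9 in shNFIB cells at day 5.

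**Figure D5:**
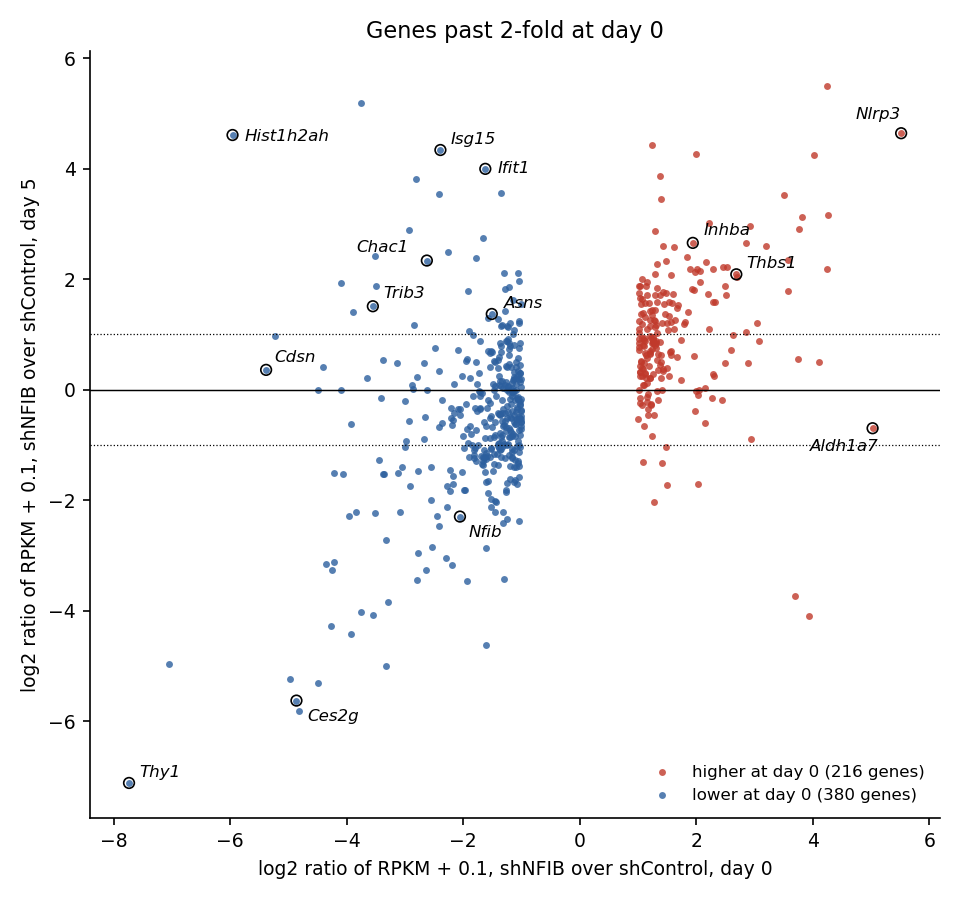
Log2 ratio of RPKM + 0.1 in shNFIB over shControl cells at day 0 (x axis) and at day 5 (y axis) for the 216 higher (red) and 380 lower (blue) genes, with 2-fold at day 5 as dotted lines. *Thy1* and *Ces2g* stay low and *Nlrp3* stays high, while *Trib3*, *Chac1*, *Asns*, *Isg15* and *Ifit1* lie above the upper dotted line at day 5.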

How the data were processed

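Total RNA of 8 cultures was made into stranded libraries with a SMARTer kit and sequenced on a HiSeq instrument. For mapping to GRCm38 the authors used CLC Genomics Workbench, and they deposited 1 table of RPKM values per library, normalised by them for exon length and mapped reads. No counts are used in those tables. Every value below was computed from the deposited RPKM with Python 3.11.15, numpy 2.4.6, pandas 2.3.3, scipy 1.17.1 and matplotlib 3.10.9.

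The tables were joined on the gene symbol. GENCODE M21 (GRCm38) gave the position and exon length of 40851 symbols, and 36 more were found by an older name. RPKM times exon length gave whole reads, within 0.02, for 96.1% to 96.5% of the values of up to 1000 reads. Counting intervals are exact (Clopper-Pearson, 95%, conditional on the reads of both libraries). They cover counting error only, and PCR copies cannot be told apart from molecules. A library at 0 was set to 3 reads for a bound. The calculation was tested on simulated data.

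The measured genes and the 46 gene lists were chosen with earlier results of these data known, so a list's count is a description. It is to be read beside the 2.06% higher and 3.62% lower of all measured genes. The named genes were the NFI family, *Kdm4d*, *Kmt2a*, *Pparg*, *Cebpa* and *Cebpb*, the 12 highest and 12 lowest ratios with an RPKM of at least 5 (no Gm or Rik symbols, no pseudogenes), the 8 genes with the highest RPKM switched each way, up to 6 members per list with the largest ratio, the markers, and a pair of rRNA-like genes. *Atf4* and *Gapdh* were named after their values were seen. The rRNA-like genes took 7.95% to 10.5% of the reads at day 0. Alternatives were another pseudocount, filter, scaling or reference library. Some named genes are not reported here. The strand setting of the counting is not given in the sources used here, so overlapping genes and near-identical copies, such as histone genes, are uncertain.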

Additional observations from a re-analysis of the deposited data

Results flagged for a closer look

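For the named genes given here, the ratio of shNFIB to shControl cells passed 2-fold in opposite directions at day 0 and day 5. There is 1 library per line and day, so the difference between the days was not tested. The log2 ratios at day 5 are given first and those at day 0 after them.

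Of the interferon-stimulated genes, *Isg15* had 4.34 (-2.39 at day 0), *Ifit1* 3.995 (-1.62), *Usp18* 3.82 (-2.82), *Ifi27l2a* 3.54 (-2.41), *Irf7* 2.75 (-1.67) and *Oas1a* 1.40 (-3.89). *Isg15*, *Usp18* and *Oas1a* had 3 reads each in shNFIB cells at day 0, and *Ifit1* had an RPKM of 17.0 in shControl and 273 in shNFIB cells at day 5. Of the ATF4, serine and transporter lists, *Chac1* had 2.34 (-2.62), *Slc7a5* 1.79 (-1.92), *Trib3* 1.51 (-3.55), *Asns* 1.37 (-1.51), *Psph* 1.16 (-1.34) and *Shmt2* 1.16 (-1.26). In each of these 6 genes the RPKM of shControl cells was lower at day 5 than at day 0.

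Of the remaining genes, the growth factor *Hgf* had 1.42 (-1.29) and the cytochrome oxidase subunit *Cox6a2* 2.89 (-2.93). The RPKM of *Cox6a2* in shControl cells at day 5 was only 0.0761, which is below the pseudocount. *Hist1h2ah* had 4.61 (-5.96) and was listed at 0 in shNFIB cells at day 0 and in shControl cells at day 5. Among these genes, *Fgf2*, at -1.32 (1.42 at day 0), and *Gm47204*, at -4.10 (3.94), were higher at day 0 and lower at day 5.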

How the results depend on the processing

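No paired analysis was possible because the day 0 comparison has 1 library a side and the labels give no replicate numbers. The filter on low values and the pseudocount moved the counts of genes past 2-fold most. The 216 higher and 380 lower genes became 115 and 210 with 1 added to each RPKM, 617 and 885 with no filter, 86 and 158 with an RPKM over 5, and 133 and 233 where the whole counting interval had to pass 2-fold. Against the median of the other 3 day 0 libraries, 248 genes were lower. Scaling by median of ratios gave 208 and 400, quantile normalization 229 and 348. Only genes at exactly 0 left 6 switched on and 16 off. With 1 added, 27.8% of the higher and 20.8% of the lower genes passed 2-fold again at day 5.

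Against the median of the other 3 libraries, the ratio turned in sign for the interferon list (0.13), the proliferin list (-1.07), *Prl2c3* (-1.14), *Hist1h4n* (-0.38), *Perp* (0.45) and *Ifit1* (0.0091). Only named genes past 2-fold and lists with larger medians were screened for such a turn. Smaller ratios can turn as well, as that of *Pparg* did. Of the 54 higher and 82 lower named genes, 45 and 66 still passed 2-fold by this reference, 46 and 68 with 1 added, and 54 and 82 after median of ratios. A ratio to *Gapdh* adds 0.64 to the log2 ratio of well expressed genes and left 54 and 47. It adds less where the RPKM in shNFIB cells is near or below the pseudocount. The cause of these shifts was not tested.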

Other observations

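Of 25 measured semaphorins, ephrins and other guidance genes, 2 were higher and 3 lower (median 0.03), beside 2.06% and 3.62% of all measured genes. *Epha4*, an ephrin receptor, had an RPKM of 0.172 in shControl, 1.25 in shKDM4D, 0.172 in shMLL1 and 1.45 in shNFIB cells. The secreted semaphorins *Sema3f* (5.35 in shControl and 1.11 in shNFIB cells) and *Sema3a* (2.74 and 0.587) and the netrin receptor *Unc5c* (1.84 and 0.521) were lower. Of 26 growth factors and receptor tyrosine kinases, 2 were higher and 1 lower (median 0.18). *Fgf2* (0.830 and 2.39) and *Hbegf*, an EGF receptor ligand (3.42 and 8.06), were higher, and *Hgf* (3.01 and 1.18) was lower. Of 8 Notch pathway genes, the receptor *Notch3* (3.41 and 7.55) and the ligand *Jag1* (4.95 and 10.5) were higher and 0 were lower.

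Of 10 measured bone and cartilage genes, 4 were lower and 0 higher. *Spp1*, which encodes osteopontin, had an RPKM of 206 in shControl, 104 in shKDM4D, 473 in shMLL1 and 90.1 in shNFIB cells. *Dlx5*, a homeobox factor of bone, had 7.05 and 2.94, and *Scx*, a tendon factor, had 17.1 and 8.22 in shControl and shNFIB cells. Of 11 imprinted genes, 2 were higher and 0 lower, and 7 had a ratio below 0 (median -0.61). The neighbours *Peg10* and *Sgce* on chromosome 6 were higher, with 0.771 and 3.76 for *Peg10* and 1.67 and 3.69 for *Sgce*.

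The remaining lists held few or no genes past 2-fold. Lists with 0 higher and 0 lower genes were the 6 measured Hox genes (median -0.28), the 13 mitochondrially encoded genes (0.17) and the 15 genes of the MLL1 complex and the KDM4 family (0.13). Of 10 acute-phase and complement genes, 2 were lower and 0 higher (median -0.60), and *Cp*, which encodes the copper carrier ceruloplasmin, had an RPKM of 11.1 in shControl and 3.52 in shNFIB cells. Of 23 NRF2 antioxidant genes, 3 were lower and 0 higher (median -0.24), among them the glutathione transferase *Gstm1* (54.9 and 22.9). Of 13 integrins and laminins, 2 were lower, *Itga3* (1.26 and 0.469) and *Itgb7* (3.25 and 1.35). Of 13 smooth muscle genes, 1 was higher, the myosin light chain *Myl9*, with 11.7 in shControl, 6.65 in shKDM4D, 4.87 in shMLL1 and 33.01 in shNFIB cells. Of 19 AP-1, Myc and immediate early factors, 2 were higher and 1 lower, of 17 matrix proteases and inhibitors 2 were higher and 1 lower, and of 14 insulin and IGF genes 1 was higher and 1 lower. Of 13 MHC class I and immunoproteasome genes, 1 was lower (*H2-T23*, 8.82 and 3.60), of 14 fatty acid genes 1 was lower (*Scd1*), of 14 hypoxia genes 1 was lower (*Adm*, adrenomedullin, 8.63 and 2.61), and of 16 clock genes 1 was lower (*Nfil3*, 8.84 and 3.99). Of 12 glucocorticoid-responsive genes, 1 was higher (*Dusp1*, 6.28 and 14.6), and of 13 replication-dependent histones 1 was higher and 1 lower. Of 2 proliferin genes, *Prl2c3* was higher (0.635 and 3.31), but its RPKM was 9.33 in shKDM4D and 7.41 in shMLL1 cells, and its reads may be shared with near-identical copies.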
